A study of Mus musculus with 16 samples.

Results

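T cell receptor segment genes are the gene pieces from which the chains of the T cell receptor are built. They were chosen by annotation and by detection, as the rows of the expression table annotated as V, J, C or D genes of the receptor loci, with a value above 0.0001 CPM (read counts scaled to library size) in at least 2 of the 16 libraries. All 204 rows so annotated, of 30095 rows in the table, met this rule. The member seen in the fewest libraries had reads in 3 of them, so no annotated row lay outside the threshold. The only measured value used for the choice was whether reads were present, with no difference between groups. The members comprised 140 V, 56 J and 8 C (constant) genes and 0 D genes. GENCODE M21 annotates 144 V, 70 J, 8 C and 4 D genes in the mouse, and its D genes are only 9 to 16 bases long. Of the members, 147 belong to the alpha locus and 7 to the delta locus on chromosome 14, 36 to the beta locus on chromosome 6 and 14 to the gamma locus on chromosome 13.

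A developing T cell cuts and joins its DNA so that a V segment lies next to a J segment, with a D segment between them in the beta and delta chains. Splicing then attaches the constant region, so the constant-region transcript is shared by all T cells that use the chain, while the V and J segments differ from clone to clone. Most T cells carry an alpha and a beta chain, and a smaller class, frequent in barrier tissues such as the lung, carries a gamma and a delta chain. In RNA from a whole tissue the constant genes therefore follow the T cell transcripts as a pool, and the V genes show how that pool is divided.

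The libraries were made from whole lungs of C57BL/6 mice that carried tumours of HKP1, a mouse lung adenocarcinoma line, so RNA of tumour, lung and immune cells was measured together. The mice had received 0, 4 or 8 Gy of radiation and either a control IgG or an antibody against PD-1, an inhibitory receptor of activated T cells. Lungs were collected 24 to 48 hours after irradiation, and each library pooled 3 to 4 mice. The IgG arm had 3, 2 and 3 libraries at 0, 4 and 8 Gy, and the anti-PD-1 arm 2, 3 and 3. All groups, the 0 Gy IgG group included, bore tumours, so none shows the receptor genes of a healthy lung. The sources used here do not give sex, age, antibody dose or the irradiated field. Each pool averages over its mice, and a clone that was abundant in a single mouse cannot be told apart from one shared by all of them.

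The worth of 1 read ran from 0.0155 to 0.0418 CPM, and the members together took an estimated 4053 to 14632 reads per library. The lung markers Sftpc (442 CPM or more in each library) and Scgb1a1 (414 CPM or more) and the T cell genes Cd3e, Cd4 and Cd8a were present throughout. Replicates 2 and 3 of anti-PD-1 at 4 Gy, called the 2 outlying libraries below, had 6086 and 5315 genes without reads, against 2273 to 3851 in the other 14, and results that rest on them are given with and without them. Whether the pools were independent experiments is not said, so the p-values here rest on the variation among pools, which may be technical. The unirradiated libraries carry running numbers 13 to 17 and the irradiated ones 26 to 36, so any step that went with these numbers and the dose cannot be told apart.

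Sequences of several segments are given here for their lengths, motifs and copies. J segments are short, as the whole coding pieces of the most abundant members Trbj2-1 (chr6:41542754-41542803, plus strand), Trbj2-3 (chr6:41543223-41543271, plus strand) and Trbj2-7 (chr6:41543810-41543856, plus strand) show. The sequences are those of GENCODE M21 transcripts on mm10, 5′ to 3′. Capitals mark TTTGGN or TTCGGN on the coding strand, the start of the phenylalanine-glycine motif that ends the antigen-binding loop, which 51 of the 56 J members (91.1%) hold.
Trbj2-1: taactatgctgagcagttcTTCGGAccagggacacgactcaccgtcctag
Trbj2-3: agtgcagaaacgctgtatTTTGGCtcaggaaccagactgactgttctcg
Trbj2-7: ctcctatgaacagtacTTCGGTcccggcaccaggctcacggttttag

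The V segments end in the start of the same loop. Shown are the last 60 bases of Trbv13-2, the V gene with the highest mean CPM per kilobase, and of Trbv4 and Trbv29, each of which stood far above its usual level in a single library. Capitals mark TGTGCNAGC on the coding strand, which 17 of the 22 beta V members (77.3%) and 0 of the other V members hold in this window. The genes lie at chr6:41121396-41121832, chr6:41059394-41059886 and chr6:41271394-41271881, all on the plus strand.
Trbv13-2: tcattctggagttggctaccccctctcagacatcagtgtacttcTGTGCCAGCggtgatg
Trbv4: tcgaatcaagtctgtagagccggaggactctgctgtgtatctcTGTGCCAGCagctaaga
Trbv29: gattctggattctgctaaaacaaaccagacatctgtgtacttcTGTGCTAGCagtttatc

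Alpha V genes differ from the beta V genes in that the locus is partly triplicated. Of 106 alpha V members, 78 had another member at 97% identity or more over the shorter transcript and 30 had one with the same letters, whereas 0 of 22 beta, 0 of 7 gamma and 0 of 5 delta V members had either. Reads of copies with the same letters cannot be assigned to a single gene: Trav4d-4 and Trav4n-4 have the same sequence and carried the same CPM in every library. For copies that differ at a few bases, reads may be shared in part. Trav7-5, the only member called at 8 Gy against 0 Gy, is 95.8% identical to its nearest relatives Trav7d-5 and Trav7n-5, which have the same letters. The last 60 bases of Trav7-5 and Trav7d-5 are shown with capitals at the 4 positions where they differ (chr14:53530786-53531313 and chr14:52835858-52836387, plus strand). Such differences are what lets reads be told apart.
Trav7-5: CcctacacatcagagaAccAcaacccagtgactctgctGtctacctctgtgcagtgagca
Trav7d-5: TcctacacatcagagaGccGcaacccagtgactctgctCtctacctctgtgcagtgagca

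Together the members took 113 to 287 CPM. With IgG the sums stood at 171, 159 and 287 CPM without irradiation, at 125 and 113 CPM after 4 Gy and at 228, 244 and 202 CPM after 8 Gy. Under anti-PD-1, in the same order of doses, they were 196 and 116, then 168, 169 and 169.7, then 234, 265 and 130.0 CPM. With IgG both 4 Gy libraries lay below every 0 and 8 Gy library, and with anti-PD-1 the 4 Gy libraries lay between the lowest and the highest of the other doses. By dose, 0 Gy had a mean of 186 ± 63.5 CPM (SD, n = 5), 4 Gy of 149 ± 27.7 CPM (n = 5) and 8 Gy of 217 ± 47.5 CPM (n = 6), with 135 ± 28.7 CPM for 4 Gy without the 2 outlying libraries. By antibody the means were 191 ± 60.2 CPM with IgG and 181 ± 49.9 CPM with anti-PD-1 (n = 8 each), a difference far inside the spread of either. In whole tissue, fewer T cells and less receptor RNA per T cell cannot be told apart.

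**Figure D1:**
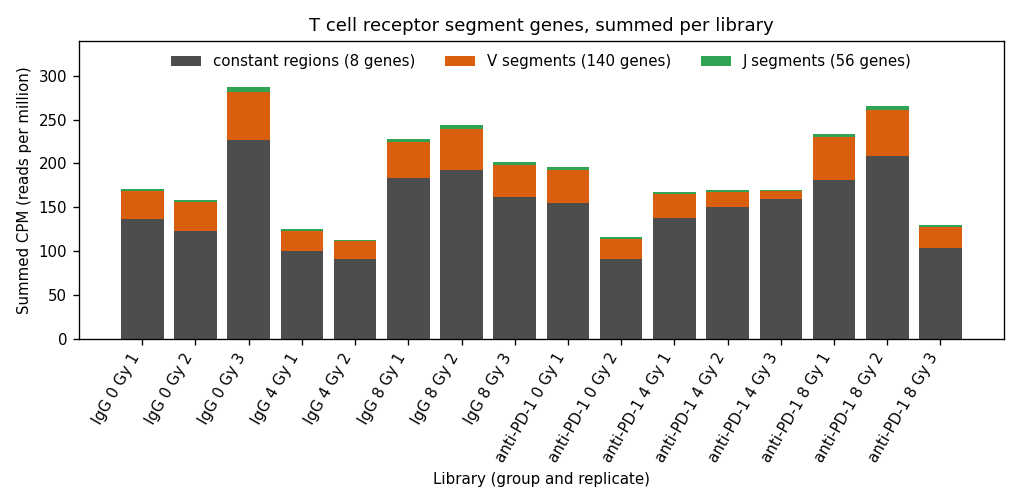
Summed CPM of the 204 T cell receptor segment genes in each library, with constant, V and J genes stacked in that order from 0. Constant genes make up most of each bar; the lowest bars are IgG 4 Gy replicate 2 (113 CPM) and anti-PD-1 0 Gy replicate 2 (116 CPM) and the highest is IgG 0 Gy replicate 3 (287 CPM).

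The constant genes supplied most of these reads, 77.4 to 93.7% of the summed CPM per library. Per kilobase of exon, the mean level was 83.2 CPM for Trbc2 and 62.9 CPM for Trac, which encode the beta and alpha constant regions, and 24.5 CPM for Trbc1, the other beta constant gene. The gamma constant gene Tcrg-C2 had 7.53, Tcrg-C1 2.64 and Tcrg-C4 1.95 CPM per kilobase, and Trdc, the delta constant gene, 1.02 CPM per kilobase over its long annotated transcripts. Trbc1 and Trbc2 are 87.4% and Tcrg-C1 and Tcrg-C2 95.6% identical, so how the authors' counting shared reads between them bears on each pair's split. Trbc1 took 19.5 to 29.4% of the summed Trbc CPM. Tcrg-C3, listed at 0 in 6 libraries and at most at 0.345 CPM, was the only constant gene below 1 CPM throughout.

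Beyond the constant genes the pool was spread thinly. Only 15 members had a mean of 1 CPM or more, 115 had a mean under 0.1 CPM, and 48 had reads in all 16 libraries (90 in all of the 14 other than the outlying ones). V genes summed to 10.03 to 54.8 CPM and J genes to 0.703 to 5.62 CPM, with lowest sums of 20.1 and 1.71 CPM without the 2 outlying libraries. Among the J genes, mean levels per kilobase were 4.23 CPM for Trbj2-1, 4.06 CPM for Trbj2-3 and 3.85 CPM for Trbj2-7, above those of most V genes, although Trbj2-1 itself had only 0 to 0.534 CPM per library. The alpha J gene Traj21 ranged from 0 to 0.562 CPM. The J members were each too low for a test at the filter of 1 CPM in 2 libraries.

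The number of segments with reads per library, of 204, was 181, 173 and 188 with IgG at 0 Gy, 170 and 164 at 4 Gy, and 177, 179 and 179 at 8 Gy. Under anti-PD-1, in the same order of doses, it was 166 and 165, then 171, 97 and 89, then 186, 188 and 152. The 2 outlying libraries thus detected 97 and 89 segments, and the other 14 between 152 and 188. The mean was 175 ± 9.86 at 0 Gy, 177 ± 12.9 at 8 Gy and 138 ± 41.4 at 4 Gy, and 168 ± 3.79 at 4 Gy without the 2 outlying libraries, which overlaps the 0 Gy range of 165 to 188. With IgG it was 176 ± 7.33 and with anti-PD-1 152 ± 38.1. The anti-PD-1 mean includes the 2 outlying libraries. The remaining anti-PD-1 libraries detected 152 to 188 segments, against 164 to 188 with IgG. Between 4 and 17 of the detected segments per library stood at under the worth of 1 read. Of the J genes, the shortest members, 29 to 44 were detected in the 14 libraries and 17 and 10 in the 2 outlying ones. A shallower library detects fewer low genes, and the part of depth in these counts was not tested.

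In the same 2 libraries the V genes were low against the constant genes. Summed V CPM was 0.202 to 0.270 of summed C CPM in the 14 other libraries and 0.118 and 0.0631 in the outlying replicates 2 and 3. The ratio was low in both main chains: for beta it was 0.120 and 0.0570, against 0.196 to 0.331 elsewhere, and for alpha 0.123 and 0.0770, against 0.203 to 0.281. The constant genes themselves were not low there, at 149.9 and 159 CPM, within the range of 91.2 to 226 CPM over the others. Fewer V reads (425 and 314, against 778 to 2859 elsewhere) were also spread over fewer V genes. For a count at equal reads, estimated reads were rounded to whole numbers, which drops the smallest shares of a read. In a fixed 300 V reads, 55.3 and 64.6 different V genes would then be expected, against 77.7 to 85.9 in the other libraries. The part of these libraries' depth and of their many genes without reads in this pattern was not tested. Without them, the V to C ratio was 0.247 ± 0.0119 at 0 Gy, 0.219 ± 0.0155 at 4 Gy and 0.239 ± 0.0188 at 8 Gy. The 3 remaining 4 Gy libraries (0.202 to 0.233) reached up to the lowest 0 Gy library (0.233) and overlapped the 8 Gy libraries (0.222 to 0.270).

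**Figure D2:**
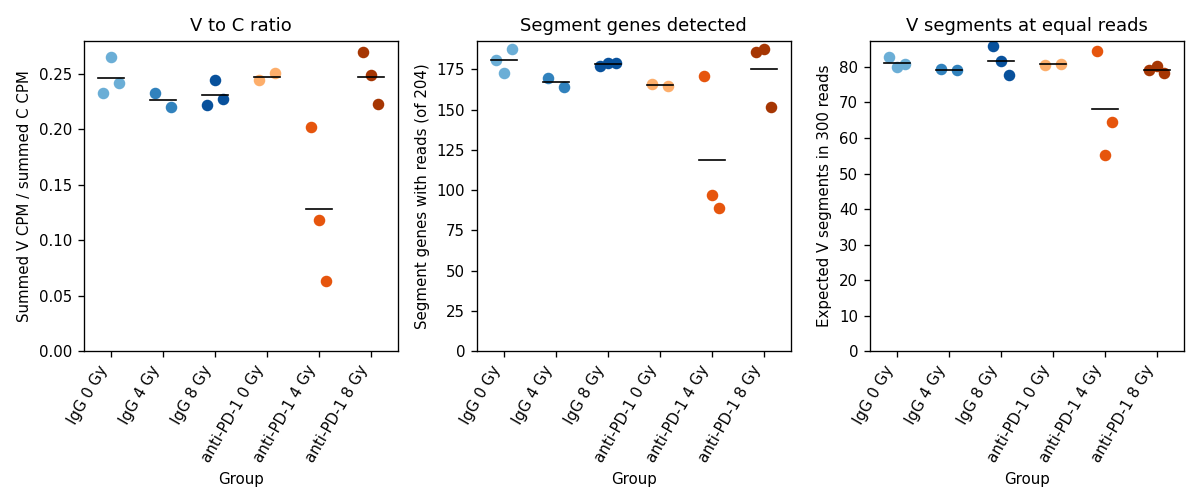
Measures per library by group, with a point per library and a line at the group mean: summed V CPM over summed C CPM, number of the 204 segment genes with reads, and expected number of V genes in 300 V reads. In each panel 2 of the 3 anti-PD-1 4 Gy libraries lie below all others (ratios 0.118 and 0.0631, 97 and 89 segments, 55.3 and 64.6 V genes).

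Lungs at 8 Gy were first compared with unirradiated lungs over both antibodies. All 8 constant genes had a higher mean CPM at 8 Gy than at 0 Gy, as did 83 of 140 V and 33 of 56 J genes, and 124 of all 204 members (60.8%), against 38.3% of the 30076 genes with reads in 2 libraries. None of the constant genes passed the test: Trac stood at 59.3 ± 19.4 CPM (SD, n = 5) and 68.3 ± 16.2 CPM (n = 6), which limma put at 0.26 ± 0.20 on the log2 scale (SE, adjusted p = 0.387), Trbc2 differed by 0.35 ± 0.24, Trbc1 by 0.22 ± 0.20, Trdc by 0.50 ± 0.27 and Tcrg-C4 by 0.38 ± 0.16 (adjusted p = 0.105). Of the 23 members that reached 1 CPM in 2 libraries and were tested, 1 was called, Trav7-5, as higher, against 20.7% of all 17546 genes tested called in either direction and 4.68% called as higher. The 23 had a median log2 fold change of 0.26, against -0.09 for all genes tested. Setting the library medians equal moved these to 0.36 and 0.01, which leaves the gap between members and all genes nearly as it was. Quantile normalization called 1421 genes higher and 1764 lower in the whole table, against 822 and 2818 here. Passing the filter was not independent of dose: Trav7-5 and Trav10 passed through 8 Gy libraries alone, so the counts over the 23 are a description.

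At 4 Gy against 0 Gy the members went the other way. Of 204 members, 173 had a lower mean CPM at 4 Gy and 31 a higher one (15.2%), against 39.8% higher among all genes. Without the 2 outlying libraries 50 were higher (24.5%), against 38.7%. Of the 23 tested, 2 fell, the beta V genes Trbv4 and Trbv3, against 17.5% of all genes called in either direction and 12.2% called as lower, and the median was -0.38 against -0.14 over all genes tested (-0.33 and -0.03 with equal library medians). Quantile normalization called 1343 genes higher and 1061 lower in the whole table, against 935 and 2141 here. For both, and for 12 of the 23 tested, no 4 Gy library reached 1 CPM, so the filter favoured a fall here. With no filter 3 of all 204 members fell (1.47%), against 8.13% of 30076 genes called in either direction. Both calls ended without the 2 outlying libraries, where 91 genes of the whole table were still called. Trac (log2 fold change -0.35 ± 0.21, adjusted p = 0.236) and Tcrg-C2 (log2 fold change -0.74 ± 0.25, adjusted p = 0.0517) missed the threshold, and Trbc2 stood at 0.01 ± 0.25.

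The 8 Gy and 4 Gy libraries differed most. Here 183 of 204 members had a higher mean at 8 Gy (89.7%), against 50.4% of all genes, and 169 (82.8%) without the 2 outlying libraries, against 48.4%. Of the 23 tested, 11 rose and 0 fell, and 34.3% of all genes tested were called in either direction and 17% as higher. The 11 were Trac, Tcrg-C2, Tcrg-C4, Trgv2, Trbv3, Trbv4, Trbv19, Trbv29, Trav7-5 and the identical pair Trav4d-4 and Trav4n-4. For 8 of them no 4 Gy library reached 1 CPM, so the filter itself favoured their rise; with no filter, 20 of all 204 members rose (9.8%), against 18.6% of 30076 genes called in either direction. Without the 2 outlying libraries only Trbv4, Tcrg-C2 and Trav7-5 remained called, and the calls over all genes went from 6011 to 2200, those called as higher from 2988 to 451. The 2 comparisons with 4 Gy share those libraries, and those with 0 Gy share the unirradiated ones.

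**Figure D3:**
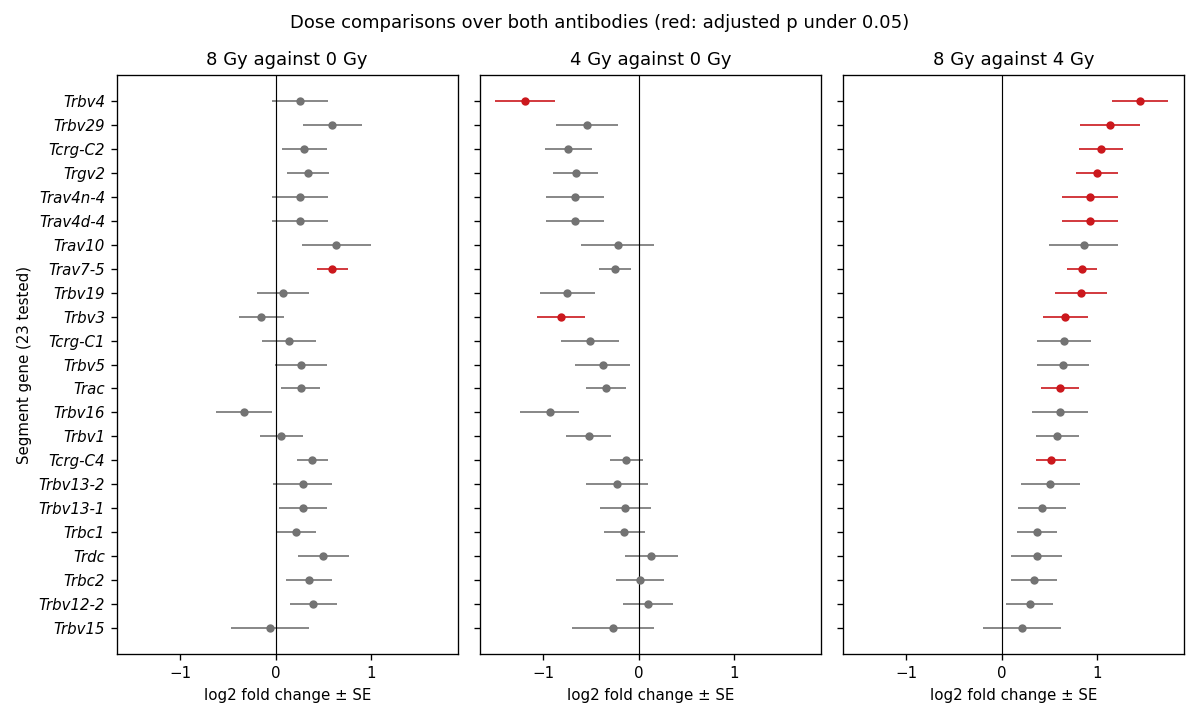
Log2 fold change ± SE (limma on log2(CPM + 0.5)) of the 23 tested members in the 3 dose comparisons over both antibodies, with calls at an adjusted p under 0.05 in red. At 8 Gy against 4 Gy all 23 lie above 0 and 11 are called, at 4 Gy against 0 Gy the 2 calls lie below 0, and at 8 Gy against 0 Gy the single call is Trav7-5.

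Trac, the alpha constant gene (chromosome 14, 54220521 to 54224206, plus strand), was lowest at 4 Gy in the IgG arm. With IgG it stood at 54.4, 51.8 and 89.4 CPM without irradiation, at 34.5 and 33.1 CPM after 4 Gy and at 82.1, 74.2 and 60.7 CPM after 8 Gy. Under anti-PD-1 it stood at 63.9 and 36.8, then 52.8, 58.8 and 56.01, then 67.8, 84.3 and 40.6 CPM, in the same order of doses. With IgG both 4 Gy libraries were below all the others, and with anti-PD-1 the 4 Gy libraries lay inside the ranges of 0 and 8 Gy. The rise from 4 to 8 Gy was 1.08 ± 0.30 with IgG (limma, adjusted p = 0.0434) and 0.14 ± 0.27 with anti-PD-1 (adjusted p = 0.703). The 4 Gy effects of the 2 antibodies did not differ past the threshold (1.09 ± 0.42, adjusted p = 0.0931), and the difference between the 8 against 4 Gy effects was not tested. The call with IgG was lost in 12 of 25 alternatives. Among them were quantile normalization, no filter, the replicate block and leaving out any of the 5 libraries compared. Another was the fit without the 2 outlying libraries, which are not in this comparison.

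Trbc2 (chromosome 6, 41546730 to 41548352, plus strand) did not pass in any comparison. With IgG it stood at 49.7, 41.9 and 88.9 CPM without irradiation, at 40.5 and 36.8 CPM after 4 Gy and at 68.0, 72.5 and 55.0 CPM after 8 Gy, and under anti-PD-1 at 57.8 and 30.1, then 53.8, 64.4 and 71.4, then 71.2, 82.8 and 36.8 CPM. Trbc1 (chromosome 6, 41538218 to 41539881) lay between 11.8 and 29.4 CPM, and its 3 dose groups overlapped. The beta constant genes were high at 4 Gy against their partners. Summed Trbc CPM was 0.864 to 1.01 of the summed CPM of Cd3d, Cd3e and Cd3g, which encode chains of the receptor's signalling complex, at 4 Gy, against 0.6253 to 0.787 at 0 Gy and 0.697 to 0.834 at 8 Gy, so the 4 Gy libraries did not overlap the rest. Trac in turn was 0.610 to 0.735 of summed Trbc CPM at 4 Gy and 0.739 to 0.965 at the other doses. These ratios were chosen after earlier results of these data were known and carry no test.

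The gamma constant gene Tcrg-C2 (chromosome 13, 19304649 to 19307551, minus strand) held its call at 8 Gy against 4 Gy in all 25 alternatives. With IgG it stood at 7.19, 12.0 and 6.33 CPM without irradiation, at 5.47 and 2.35 CPM after 4 Gy and at 5.32, 7.85 and 11.5 CPM after 8 Gy. Under anti-PD-1 it stood at 6.34 and 5.14, then 3.72, 4.43 and 4.46, then 10.5, 9.81 and 7.79 CPM. The 4 Gy libraries were low and overlapped the 8 Gy libraries only through IgG 8 Gy replicate 1. The change was 1.04 ± 0.23 (limma, adjusted p = 0.00531), and 1.12 ± 0.30 without the 2 outlying libraries (adjusted p = 0.0328). Tcrg-C4 (chromosome 13, 19344558 to 19352756, plus strand) rose from 1.52 ± 0.207 CPM at 4 Gy to 2.42 ± 0.524 CPM at 8 Gy (0.52 ± 0.16, adjusted p = 0.0255; 0.47 ± 0.19 and adjusted p = 0.125 without the 2 outlying libraries). Tcrg-C1, at 1.62 ± 0.435 and 2.94 ± 1.00 CPM, gave 0.65 ± 0.29 (adjusted p = 0.0909).

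Trgv2, a gamma V gene (chromosome 13, 19336573 to 19337167, minus strand) and the only gamma or delta V gene that was tested, stood at 1.08, 2.02 and 1.08 CPM with IgG at 0 Gy, 0.862 and 0.468 CPM at 4 Gy, and 1.33, 1.44 and 2.26 CPM at 8 Gy. Under anti-PD-1 it stood at 1.01 and 0.804, then 0.5262, 0.418 and 0.287, then 2.25, 1.62 and 0.745 CPM. Of the libraries at other doses, anti-PD-1 8 Gy replicate 3 (0.745 CPM) and anti-PD-1 0 Gy replicate 2 (0.804 CPM) lay among the 4 Gy libraries. The rise from 4 to 8 Gy was 1.00 ± 0.22 (limma, adjusted p = 0.00531), and 0.91 ± 0.28 without the 2 outlying libraries (adjusted p = 0.0562). Trdc (chromosome 14, 54142851 to 54148868, plus strand) ranged from 1.84 to 6.88 CPM with no call. Its span overlaps the delta V gene Trdv5 and an antisense gene, and reads of overlapping genes cannot be told apart without strand. Gamma and delta genes together took 6.13 to 14.5% of constant-region CPM: 11.0 ± 2.81% at 0 Gy, 8.90 ± 2.40% at 4 Gy and 11.3 ± 2.28% at 8 Gy, and 10.4 ± 1.52% at 4 Gy without the 2 outlying libraries.

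The gamma and delta V genes of the lung's resident subsets were near the limit of detection. Tcrg-V6, which marks a subset that makes interleukin 17, was at most 0.123 CPM, and Tcrg-V4, used by another such subset, at most 0.414 CPM and listed at 0 in the 2 outlying libraries. Tcrg-V5, the segment of skin gamma delta T cells, had reads in 5 libraries, and Tcrg-V7, typical of the gut epithelium, reached 0.661 CPM in IgG 0 Gy replicate 3. The delta V gene Trdv4 had a median of 0.153 CPM. The 11 segments of this list present in the table summed to 1.81 to 3.09 CPM at 0 Gy, 0.48 to 1.73 CPM at 4 Gy and 1.71 to 3.93 CPM at 8 Gy. Trgv2, described above and not near the limit of detection, is 1 of the 11. Without it the other 10 summed to 0.589 to 2.01 CPM at 0 Gy, 0.192 to 0.986 CPM at 4 Gy and 0.963 to 1.68 CPM at 8 Gy, and these ranges overlap.

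The beta V genes gave the clearest view of single segments, since no beta V gene has a near-identical copy. Per kilobase, Trbv13-2 led with a mean of 7.91 CPM, followed by Trbv16 at 4.66, Trbv4 at 4.63 and Trbv13-1 at 3.97 CPM. Trbv13-2 took 8.49 to 30.4% of a library's beta V CPM (median 14.4%) and led alone in 7 of 16 libraries and level with Trbv16 in IgG 0 Gy replicate 2. It stood at 2.80 ± 1.67 CPM at 0 Gy, 2.04 ± 0.747 CPM at 4 Gy and 3.13 ± 1.41 CPM at 8 Gy, with no call. In other libraries the lead went to Trbv16 (22.0% in IgG 0 Gy replicate 1, 20.1% in anti-PD-1 0 Gy replicate 1), Trbv15 (21.2% in IgG 4 Gy replicate 1), Trbv3 (19.8% in anti-PD-1 0 Gy replicate 2), Trbv19 (10.9% in IgG 8 Gy replicate 1), Trbv4 (24.1% in anti-PD-1 8 Gy replicate 2) and Trbv29 (17.4 and 13.95% in anti-PD-1 8 Gy replicates 1 and 3).

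These leads changed between pools of the same group. The effective number of beta V genes, the number of equally used genes that would give the same Shannon diversity, ran from 11.0 to 16.1. It was 13.9 ± 1.07 at 0 Gy, 13.8 ± 2.02 at 4 Gy and 14.7 ± 1.29 at 8 Gy, and 14.7 ± 1.41 with IgG and 13.7 ± 1.42 with anti-PD-1. The spread within a dose exceeded the differences between doses. For the alpha V genes it ran from 55.7 to 70.5 in the 14 libraries and was 24.2 and 31.2 in the outlying ones, and alpha copies share reads. The part of read number in the alpha value was not tested.

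**Figure D4:**
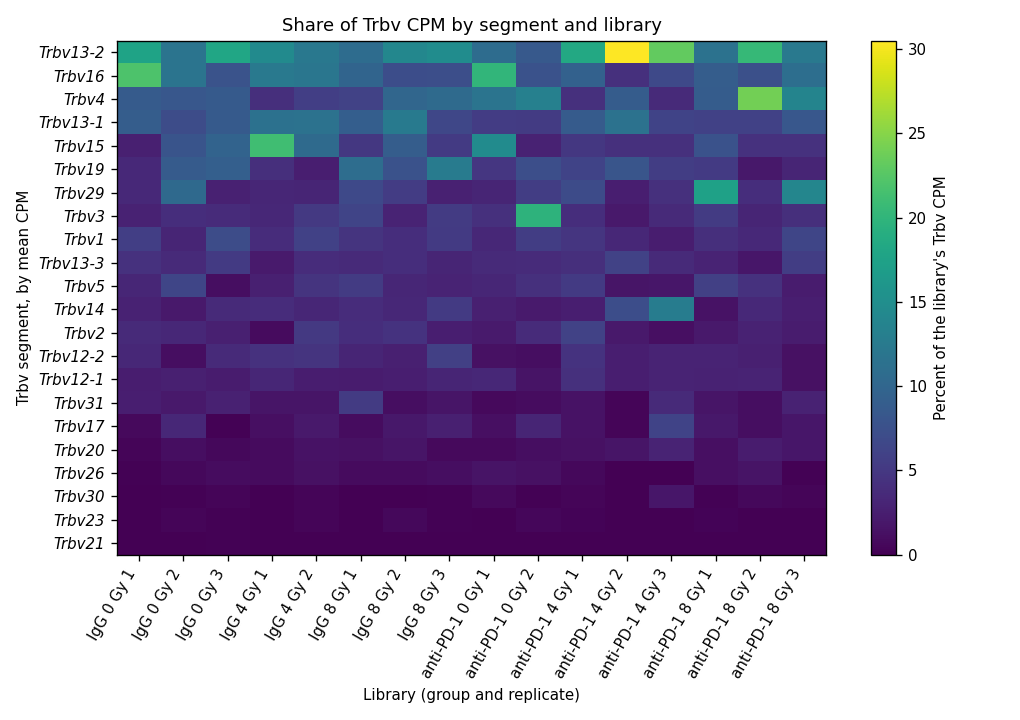
Share of each library's summed Trbv CPM (percent, colour) taken by each of the 22 beta V genes (rows, ordered by mean CPM) in the 16 libraries (columns). Trbv13-2 is bright in most columns, up to 30.4%, and single bright cells mark Trbv4 (24.1%), Trbv15 (21.2%) and Trbv3 (19.8%) in individual pools.

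Trbv4 (chromosome 6, 41059394 to 41059886, plus strand) was the beta V gene with the largest dose difference of those tested. With IgG it stood at 1.504, 1.47 and 2.64 CPM without irradiation, at 0.536 and 0.691 CPM after 4 Gy and at 1.22, 2.47 and 2.01 CPM after 8 Gy. Under anti-PD-1 it stood at 2.51 and 1.65, then 0.590, 0.878 and 0.192, then 2.28, 6.69 and 1.79 CPM. Every 4 Gy library lay below every library of the other doses. The change was -1.19 ± 0.31 from 0 to 4 Gy (limma, adjusted p = 0.0261; adjusted p = 0.142 without the 2 outlying libraries) and 1.45 ± 0.30 from 4 to 8 Gy (adjusted p = 0.0031; 1.40 ± 0.35 and adjusted p = 0.0268 without them), and the latter call held in all 25 alternatives. The value of 6.69 CPM in anti-PD-1 8 Gy replicate 2 stood for an estimated 369 reads. Trbv4 lies within the span of the non-coding gene 5830405F06Rik on the same strand, and reads of that gene cannot be told apart from its own.

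Trbv29 (chromosome 6, 41271394 to 41271881, plus strand) stood under anti-PD-1 at 0.668 and 0.689 CPM without irradiation, at 0.990, 0.251 and 0.224 CPM after 4 Gy and at 4.50, 1.12 and 1.82 CPM after 8 Gy. With IgG it stood at 0.602, 1.85 and 0.867 CPM without irradiation, at 0.425 and 0.388 CPM after 4 Gy and at 1.38, 1.33 and 0.543 CPM after 8 Gy. The anti-PD-1 8 Gy libraries were above the other anti-PD-1 libraries, and the dose groups as a whole overlapped. The rise from 4 to 8 Gy over both antibodies was 1.14 ± 0.31 (limma, adjusted p = 0.0139), and 0.80 ± 0.36 without the 2 outlying libraries (adjusted p = 0.169). Trbv3 fell from 1.14 ± 0.772 CPM at 0 Gy to 0.404 ± 0.197 CPM at 4 Gy by 0.82 on the log2 scale (adjusted p = 0.0394). That call was lost in 13 of 25 alternatives, leaving out anti-PD-1 0 Gy replicate 2, which held the highest value of 2.46 CPM, among them. Trbv19 rose from 0.558 ± 0.267 CPM at 4 Gy to 1.47 ± 0.854 CPM at 8 Gy (0.83 ± 0.27, adjusted p = 0.0327). The call was lost in 8 of 25 alternatives, among them the replicate block, 6 single libraries left out and the fit without the 2 outlying libraries (0.68 ± 0.33, adjusted p = 0.193). Its 8 Gy values split by antibody: 2.22, 1.87 and 2.44 CPM with IgG against 1.33, 0.544 and 0.417 CPM with anti-PD-1. That difference did not pass over all genes (-1.15 ± 0.37, adjusted p = 0.264).

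Trav7-5, an alpha V gene, stood out in a single group, and only through that group did it reach the filter of 1 CPM in 2 libraries. With IgG at 8 Gy it stood at 0.689, 1.06 and 1.30 CPM, an estimated 32, 51 and 74 reads. In the other 13 libraries it stood between 0 and 0.267 CPM, the highest being anti-PD-1 0 Gy replicate 1, so the IgG 8 Gy pools lay above all the rest. How many other genes set a group apart in this way was not counted. The near relative of Trav7-5, Trav7d-5, was at 0.0111, 0.0312 and 0 CPM in those 3 pools. Trav7d-5 has the same letters as Trav7n-5, so these values may be a share of reads split with that copy. The rise from 0 to 8 Gy with IgG was 1.26 ± 0.21 (limma, adjusted p = 0.00431), in a comparison where 10.6% of all genes were called and 1.44% called as higher, and with anti-PD-1 the difference was -0.07 ± 0.24. The test of the difference between those 2 responses gave -1.33 ± 0.32 (limma, adjusted p = 0.496). Anti-PD-1 against IgG after 8 Gy gave -1.19 ± 0.21 (adjusted p = 0.0911, and 0.031 to 0.535 over the alternatives), and no anti-PD-1 pool reached the IgG range.

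Trav7-5 took 3.87, 5.46 and 9.43% of the alpha V CPM of the 3 IgG 8 Gy pools, and at most 1.86% in the others. It passed the filter through that group alone, so its presence among the 23 tested was favoured by its rise. It was also called with no filter and with a filter at 0.2 CPM, and its call at 8 Gy against 0 Gy with IgG was lost in 1 of 25 alternatives, the fit of the compared groups alone (adjusted p = 0.0528). Over both antibodies the change was 0.59 ± 0.16 (adjusted p = 0.0184) against 0 Gy, a call that ended without anti-PD-1 0 Gy replicate 2 or without anti-PD-1 8 Gy replicate 1. Against 4 Gy it was 0.84 ± 0.16 (adjusted p = 0.00203).

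Other alpha V genes were high in a single pool or a pair of pools, and were picked out after their values were seen. Trav10 (chromosome 14, 53505727 to 53506286) stood at 1.57 CPM in IgG 8 Gy replicate 2 and 1.89 CPM in anti-PD-1 8 Gy replicate 1 and at no more than 0.522 CPM elsewhere. It is 99.3% identical to Trav10d, so its reads may be shared. Trav17 (chromosome 14, 53806639 to 53807115) stood at 1.13 CPM in the outlying anti-PD-1 4 Gy replicate 2, 15.6% of that pool's alpha V CPM from an estimated 27 reads, and at no more than 0.263 CPM elsewhere. Trav4d-4, together with its identical copy Trav4n-4, reached 2.07 CPM in anti-PD-1 8 Gy replicate 2, the pool with the high Trbv4. The pair rose from 4 to 8 Gy by 0.92 ± 0.29 (limma, adjusted p = 0.0265), a call lost in 7 of 25 alternatives, 6 of them leaving out a single library (IgG 4 Gy replicates 1 and 2, IgG 8 Gy replicates 2 and 3, anti-PD-1 4 Gy replicate 3 and anti-PD-1 8 Gy replicate 2). As the reads are shared, the pair is a single measurement.

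**Figure D5:**
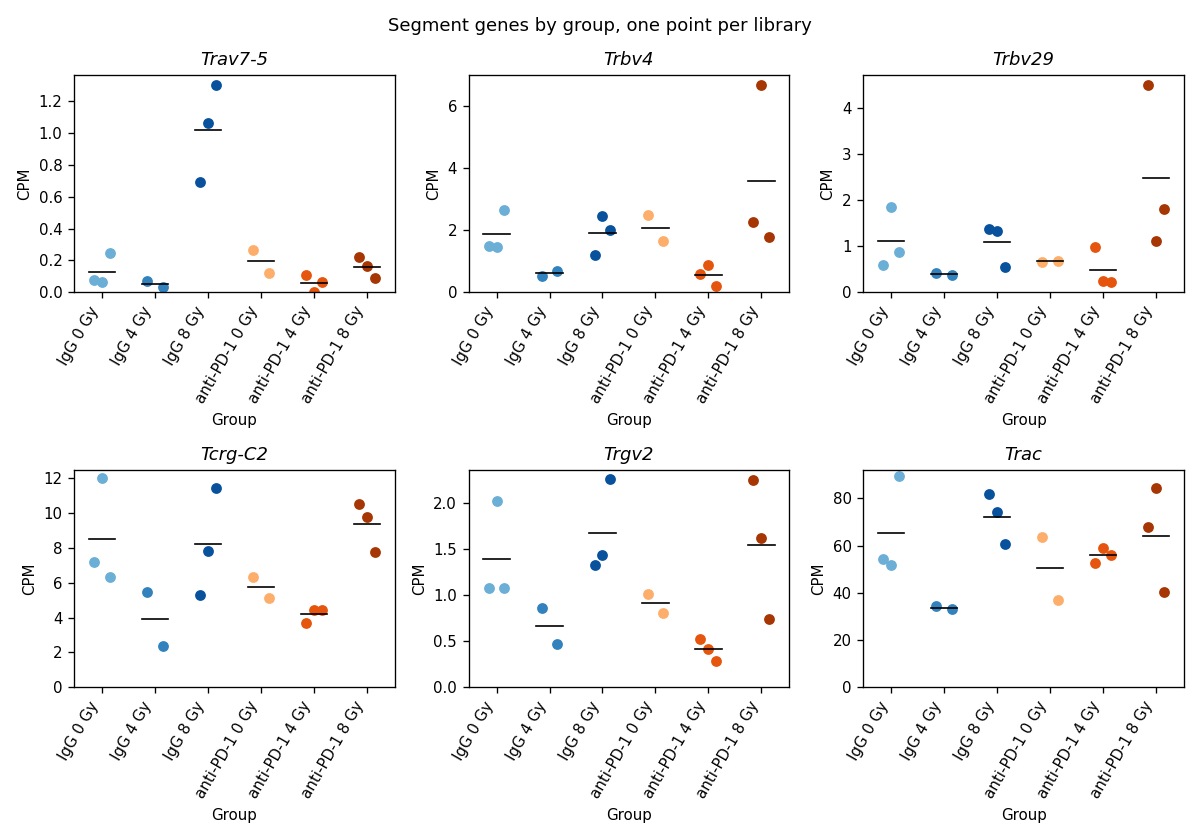
CPM of Trav7-5, Trbv4, Trbv29, Tcrg-C2, Trgv2 and Trac by group, with a point per library and a line at the group mean. The 3 IgG 8 Gy libraries of Trav7-5 (0.689 to 1.30 CPM) lie above all others, and the high points of Trbv4 (6.69 CPM) and Trbv29 (4.50 CPM) are single anti-PD-1 8 Gy pools.

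Segments of T cells with nearly fixed receptors were followed as lists. Invariant natural killer T cells pair Trav11 and Traj18 with Trbv13, Trbv29 or Trbv1. Trav11, whose sequence is wholly shared with Trav11d, stood between 0.0194 and 0.509 CPM and Traj18 at no more than 0.0862 CPM. Of the 7 V segments on this list 4 were tested, and 1, Trbv29, rose at 8 Gy against 4 Gy; 0 did so without the 2 outlying libraries. Mucosal-associated invariant T cells use Trav1 with Traj33. Trav1 was at most 0.178 CPM, listed at 0 in 4 libraries, and Traj33 at most 0.0647 CPM. The only tested segment of that list, Trbv19, rose at 8 Gy against 4 Gy as given above. Conventional T cells use the same beta segments, so these levels do not count either cell type.

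Anti-PD-1 was compared with IgG over all doses. Of 204 members 62 had a higher mean with anti-PD-1 (30.4%), and 88 (43.1%) without the 2 outlying libraries, against 52.4 and 60.01% of all genes. These shares use plain means over each antibody's libraries, whose mix of doses differed, so dose and antibody are mixed in them. The tests below average the difference within each dose. Of the 23 tested 0 were called, against 0.234% of all genes, 2 had an unadjusted p under 0.05, and the median was -0.07. Trac differed by 0.04 ± 0.17 (limma, adjusted p = 0.917), Trbc2 by 0.05 ± 0.20, Trbc1 by -0.02 ± 0.17, Tcrg-C2 by -0.02 ± 0.19 and Trdc by -0.26 ± 0.22, and the sign of the Trac, Trbc1, Trbc2 and Tcrg-C2 differences changed with single libraries. At 0, 4 and 8 Gy taken singly 0 members were called, against 0.274, 15.5 and 0.0057% of all genes, with 0, 2 and 2 at an unadjusted p under 0.05. In the 2 tests of whether the 8 Gy or the 4 Gy effect differed between antibodies, 0 members were called, against 0 and 9.08% of all genes, with 1 and 2 at an unadjusted p under 0.05.

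Within each antibody the dose comparisons called few members. For 8 Gy against 0 Gy 1 was called with IgG (Trav7-5) and 0 with anti-PD-1, where 2.83% of all genes were called and 1 member had an unadjusted p under 0.05. At 4 Gy against 0 Gy 0 were called with IgG, where only 0.0057% of all genes were called and 4 members had an unadjusted p under 0.05. With anti-PD-1 3 fell (Trbv3, Trbv4 and Trbv16), against 39.3% of all genes called and 25.9% called as lower. For 8 Gy against 4 Gy 3 rose with IgG (Trac, Trbv19 and Trav7-5), against 7.58% of all genes called and 1.64% called as higher. There 5 rose under anti-PD-1 (Tcrg-C2, Trgv2, Trbv4, Trbv16 and Trbv29), against 41.8% called and 24.4% called as higher. All of these anti-PD-1 calls ended without the 2 outlying libraries, which leave that group with a single 4 Gy library assumed to vary like the others. In that fit 0 of all genes were called at 8 Gy against 4 Gy under anti-PD-1. The fold changes there were 1.22 for Tcrg-C2, 0.92 for Trgv2, 1.72 for Trbv4, 0.84 for Trbv29 and 0.39 for Trbv16, against 1.06, 1.10, 1.82, 1.51 and 1.09 with all libraries (log2). Trbv16 stood at 0.418 and 0.351 CPM in those 2 libraries and at 0.960 to 4.31 CPM in all the others.

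The rest of the receptor pathway was described from lists of its genes. Of 28 genes of the receptor complex and its proximal signalling, 1 rose and 1 fell at 8 Gy against 0 Gy: Lcp2, a signalling adaptor, by 0.83 ± 0.14 (limma, adjusted p = 0.00191), and Plcg1, a phospholipase also used by many other cells, by -0.73 ± 0.11. The list's median was 0.26, equal to that of the tested segments, and 20.7% of all genes were called. At 4 Gy against 0 Gy 0 rose and 2 fell, the negative regulators Ptpn22 and Cblb, where 17.5% of all genes were called, and 0 fell without the 2 outlying libraries. The median was -0.13 over both antibodies, but the arms went different ways. With IgG 0 of 28 lay above 0 (median -0.67, 0 called, against 0.0057% of all genes). Under anti-PD-1 20 of 28 did (median 0.31, 5 called as higher and 2 as lower), where 39.3% of all genes were called. In the test of the difference of these effects 4 of 28 were called (median 1.06), against 9.08% of all genes. The calls under anti-PD-1 and in the difference rested on the 2 outlying libraries. Leaving these out keeps a single anti-PD-1 4 Gy library, so only medians are given. The median was then 0.32 under anti-PD-1 and 1.03 for the difference. At 8 Gy against 4 Gy 11 rose and 1 fell, with a median of 0.50, where 34.3% of all genes were called and 17% as higher. Among the 11 were Cd3e (0.71 ± 0.21), Cd8a (0.69 ± 0.26, adjusted p = 0.0497) and the co-receptor Cd28 (1.11 ± 0.29), while Cd4 gave 0.32 ± 0.21. Without the 2 outlying libraries 0 of the 28 rose and Plcg1 still fell, with a median of 0.44 for the list.

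Of 8 genes of receptor assembly and of thymocytes 7 were in the table. Rag1, which cuts the receptor genes, was at most 0.207 CPM and the pre-receptor gene Ptcra at most 0.188 CPM, while Dntt, which adds bases at the joints, stood at 0.370 to 2.64 CPM. Of 9 T cell transcription factors, Eomes (0.79 ± 0.21) and Tbx21 (0.90 ± 0.28), factors of cytotoxic lymphocytes, rose at 8 Gy against 0 Gy, and Zbtb16, the factor of innate-like T cells, fell (-1.68 ± 0.27), where 20.7% of all genes were called in either direction. The fall of Zbtb16 lay in the anti-PD-1 arm (-3.34 ± 0.40; -0.01 ± 0.36 with IgG), where both 0 Gy libraries were high, at 14.8 and 22.5 CPM against 1.13 to 4.95 CPM in the other 14. The difference between the arms gave -3.33 ± 0.54 (adjusted p = 0.161). The call of Tbx21 was lost without the 2 outlying libraries.

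Markers of other lymphocytes were read beside these results. Of 11 natural killer and innate lymphoid genes 2 rose and 0 fell at 8 Gy against 0 Gy, Klrk1 (0.88 ± 0.24) and Eomes, both also expressed by CD8 T cells, against 4.68% of all genes called as higher, and the list summed to 86.2 to 149 CPM at 0 Gy, 88.9 to 135 CPM at 4 Gy and 93.2 to 161 CPM at 8 Gy. At 8 Gy against 4 Gy 3 of the 11 rose, against 17% of all genes, and 0 without the 2 outlying libraries. Of 8 B cell genes 0 were called in the dose comparisons over both antibodies and in the antibody comparison over all doses. Under anti-PD-1 2 of the 8 rose at 4 Gy against 0 Gy (median 1.46), where 39.3% of all genes were called. In the same arm 1 fell at 8 Gy against 4 Gy (median -0.69), where 41.8% of all genes were called. The B cell calls in this arm rested on the 2 outlying libraries. Without them, which leaves a single anti-PD-1 4 Gy library, these medians were 1.24 and -0.73. The sum of the 8 B cell genes ran from 45.6 to 508 CPM at 0 Gy, 85.4 to 225 CPM at 4 Gy and 59.3 to 297 CPM at 8 Gy. The part of these cells in the segment levels was not tested.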

How the data were processed

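Messenger RNA of 16 libraries was analysed from the authors' deposited table of CPM values, reads scaled to the library's total, with an offset of 0.0001 that was subtracted here. STAR, Partek and mm10 are named, per the submitters' processing notes, and the versions, annotation, counting rule and strand setting were not given in the sources used here. Segment genes were matched to GENCODE M21 by name and start (204 of 204). Estimated read numbers divide a value by what 1 read was worth in its library, read from the lowest steps of the values.

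Values were tested as log2(CPM + 0.5), which understates changes of low genes, in R 4.3.3 with limma 3.58.1, whose moderated test used an intensity trend and robust variances. The 17546 genes that reached 1 CPM in 2 libraries were fitted together, with a mean for each of the 6 groups, and p-values were Benjamini-Hochberg adjusted over all genes with a threshold of 0.05. Tables and sequences were handled with Python 3.11.15, pandas 2.3.3 and Biopython 1.88. Named were all constant genes, the 10 V genes with the highest mean, called members, the highest J genes, segments of innate-like T cells and up to 4 genes per list; others are marked as picked after seeing their values. Members and lists were chosen with earlier results of these data known. Alternatives were quantile normalization, equal medians, other filters and pseudocounts, a replicate block, fits of the compared groups alone, and leaving out libraries.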

Additional observations from a re-analysis of the deposited data

Results flagged for a closer look

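Within each dose, 27 measures of the segment genes were searched for a library whose gap to its neighbour was large for the range of its dose (Dixon's criterion), in 81 dose groups. For independent, normally spread values the criterion flags about 1 in 20 such groups, and 11 were flagged here. That rate is only nominal: the measures are related, many are low, and some, such as Trav4d-4, were picked after their values were seen. At 8 Gy anti-PD-1 replicate 3 detected 152 segments, against 177 to 188 in the other 5 libraries. The beta V gene Trbv29 was flagged at every dose, with 1.85 CPM in IgG 0 Gy replicate 2 (others 0.602 to 0.867), 0.990 CPM in anti-PD-1 4 Gy replicate 1 (others 0.224 to 0.425) and 4.50 CPM in anti-PD-1 8 Gy replicate 1 (others 0.543 to 1.82). In anti-PD-1 8 Gy replicate 2 both Trbv4, at 6.69 CPM (others 1.22 to 2.47), and Trav4d-4, at 2.07 CPM (others 0.346 to 0.915), stood apart.

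In IgG 0 Gy replicate 3, the library with the highest summed CPM, Trdc was at 5.88 CPM (others 2.51 to 2.80) and Trbv1 at 2.17 CPM (others 0.556 to 0.978). Trgv2 was at 2.02 CPM in IgG 0 Gy replicate 2 (others 0.804 to 1.08). At 4 Gy Tcrg-C1 was lowest in anti-PD-1 replicate 3, at 0.843 CPM (others 1.75 to 1.86), and Tcrg-C3 was at 0.0275 CPM in IgG replicate 1 and listed at 0 in the others.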

How the results depend on the processing

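Numbers of members called by limma, per comparison, were as follows where they moved by over 1.5 times. At 8 Gy against 0 Gy 1 became 2 with quantile normalization and 3 with no filter, and 0 to 2 leaving out single libraries. At 4 Gy against 0 Gy 2 became 1 with quantile normalization or equal medians, 0 in the fit of the compared groups and 0 without the 2 outlying libraries, and 0 to 5 leaving out single libraries. At 8 Gy against 4 Gy 11 became 20 with no filter, 18 with the filter at 0.2 CPM, 3 without the 2 outlying libraries, and 5 to 14 leaving out single libraries. With IgG at 8 Gy against 0 Gy 1 became 2 with no filter and 0 in the fit of the compared groups. With anti-PD-1 at 4 Gy against 0 Gy 3 became 7 with no filter, 0 without the outlying libraries and 1 to 3 leaving out single libraries. With IgG at 8 Gy against 4 Gy 3 became 6 with quantile normalization, 5 at 0.2 CPM, 9 in the fit of the compared groups and 0 to 4 leaving out single libraries. With anti-PD-1 at 8 Gy against 4 Gy 5 became 10 with quantile normalization, 13 with no filter, 9 at 0.2 CPM or with a pseudocount of 0.1, 0 without the outlying libraries and 1 to 11 leaving out single libraries. For anti-PD-1 against IgG 0 became 2 at 4 Gy in the fit of the compared groups (0 to 1 leaving out single libraries) and 1 at 8 Gy with quantile normalization or at 0.2 CPM (0 to 1), and the difference of the 4 Gy effects ran from 0 to 2. The causes were not tested.

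The replicate numbers did not pair the libraries (median correlation of deviations -0.10 over 36 pairs with the same number, 11 of them over 0.1). A replicate block lowered the count with IgG at 8 Gy against 4 Gy from 3 to 1 and moved no other count of members by over 1.5 times.

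Uncalled differences near 0 changed sign. Without the outlying libraries Trbc2 stood at -0.10 (4 Gy against 0 Gy) and -0.027 (antibody), and Tcrg-C1 at 0.10 (antibody; 0.0036 with a pseudocount of 1); Trav7-5 at 8 Gy against 0 Gy with anti-PD-1 stood at 0.013 with quantile normalization. Leaving out single libraries, the antibody differences ran from -0.092 to 0.17 for Trac, -0.13 to 0.093 for Trbc1, -0.11 to 0.20 for Trbc2, -0.12 to 0.14 for Tcrg-C1 and -0.20 to 0.15 for Tcrg-C2. At 4 Gy against 0 Gy they ran from -0.32 to 0.013 for Trbc1, -0.22 to 0.25 for Trbc2 and -0.013 to 0.33 for Trdc. Tcrg-C1 at 8 Gy against 0 Gy ran from -0.033 to 0.35 and Trav7-5 with anti-PD-1 from -0.22 to 0.076.

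Counting a segment as detected at 0.1 CPM gave means of 90.2 at 0 Gy, 59.4 at 4 Gy and 103 at 8 Gy, 92.4 with IgG and 78.5 with anti-PD-1, and at 1 read 164 at 0 Gy and 167.0 with IgG. The 4 Gy and anti-PD-1 means at 0.1 CPM include the 2 outlying libraries, at 50 and 36 segments. Most V and J genes rest on a few reads, so single low segments cannot be compared at this depth.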
